A study of Homo sapiens with 12 samples.

Results

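The data described here are the senescent and the growing states of lung fibroblasts depleted of the interleukin-1 receptor. They are 4 of the 12 RNA sequencing libraries of the study, chosen by their labels alone: the 2 libraries of cells with a hairpin against the receptor (shIL1R) at day 10, and the 2 of the same cells at day 0. All 12 libraries were made from IMR90 cells, a human embryonic lung fibroblast line, that carried telomerase reverse transcriptase (hTERT) and RasERT2, an oncogenic Ras fusion that is switched on by tamoxifen. Hairpins were induced in all groups with doxycycline at 0.5 ug/ml, and the cells then received 200 nM tamoxifen or ethanol as its control. Which library got which is not stated one by one, but day 0 is labelled as growing control cells and day 10 is the senescent phase of Ras induction, with day 4 between them. A scramble hairpin (shScr) at the same days forms the other genotype, so that there are 6 groups of 2 libraries. Poly(A) RNA was sequenced with a kit that keeps the strand. The series text speaks of 2 independent hairpins against the receptor and of 2 replicates per condition. Whether shIL1R replicate 1 and replicate 2 carry different hairpins or are separate cultures of 1 is not given. The p-values rest on the spread within the pairs of libraries, pooled over all 6 groups, and this spread may be technical.

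Senescence is a lasting exit from the cell cycle, held by the p53 and p16 routes to the RB protein, in which fibroblasts stay alive, enlarge, lose lamin B1 and reorganise their chromatin. Cells driven into it by Ras also secrete cytokines, chemokines, proteases and growth factors, a programme called the senescence-associated secretory phenotype. Interleukin-1 alpha and beta, made by the same cells, bind the receptor encoded by IL1R1 and activate NF-kB, which drives much of the cytokine part of that programme. The comparison asks which genes changed when cells with less receptor went from growth to senescence, and by how much that change differed from the one in shScr cells.

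IL1R1 itself, the target of the hairpins, was listed at 731 and 378 normalized counts in the shIL1R day 0 libraries (replicate 1 and then replicate 2, as in all pairs below) and at 295 and 279.9 at day 10. In shScr cells it stood at 1509 and 1552 at day 0 and 1580.1 and 1239.6 at day 10. Each of the 4 shIL1R libraries therefore lay below each of the 4 shScr libraries. Within shIL1R cells the change to day 10 was -0.87 ± 0.42 in log2 (standard error, limma adjusted p = 0.0955) and was not called. Replicate 1 at day 0 was well above the other 3, and without day 0 replicate 2 the change was called lower (-1.34, limma adjusted p = 0.039), as it was without either shIL1R day 4 library, which enters only through the shared spread (limma adjusted p = 0.012 and 0.0119). It was also called with a replicate block over all libraries (0.0453) or within genotype (0.0244). HRAS, whose reads can come from the gene and from the Ras fusion alike, was at 41321 and 41405 at day 0 and 37518 and 25280.1 at day 10, so replicate 2 had the lowest value of the 4. Its change was -0.43 ± 0.17 (limma adjusted p = 0.051, not called), and without day 10 replicate 1 it was called lower (-0.71, limma adjusted p = 0.00163). It was also called without either shScr day 4 library (limma adjusted p = 0.0474 and 0.0478), after quantile normalization (-0.79, 0.00078), with either replicate block (0.0243 and 0.0253), and with TMM, a filter of 50, robust eBayes or DESeq2 (0.0402 to 0.0498).

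The 4 libraries held 27362961 and 28841272 reads at day 0 and 24168498 and 24150214 at day 10, within the range of 24140324 to 30127727 over all 12. Reads of the ribosomal precursor RNA45S5 made up 1.42% and 1.47% of the day 0 libraries and 3.0% and 2.65% of those at day 10; their part in the results was not tested. The summed level of 12 fibroblast markers was 601900 to 604200 normalized counts at day 0 and 773000 to 798100 at day 10; of the 11 tested, 3 were called higher and 5 lower (4 and 3 without day 10 replicate 1). The rise of the fibroblast sum lay mainly in FN1, at 121837 and 113034 at day 0 and 447684 and 317706 at day 10. Of 10 epithelial markers 3 were at 0 in all 4 libraries (KRT5, SFTPC and SCGB1A1), as was S100B among 6 neural ones. Their sums were 2669 to 3364 at day 0 and 2966 to 3237 at day 10 for epithelial genes, and 3817 to 4627 and then 4164 to 4597 for neural ones. Of the 4 epithelial markers tested 3 were called higher (median log2 1.04), among them KRT8 (225 and 278 at day 0, 542 and 639.96 at day 10) and KRT19 (41.3 and 23.2, then 141 and 89.2), while most of the epithelial sum was KRT18. The sum of 6 smooth muscle markers was 4210 to 4744 at day 0 and 3643 to 3779 at day 10. For 10 leukocyte markers it went from 2851 to 2888 at day 0 to 5808 to 8526 at day 10, nearly all of it CD68, a lysosomal membrane protein (2839 and 2878 at day 0, 8475 and 5782 at day 10), while AIF1 and CD3E were at 0. Both leukocyte markers that were tested were called higher, CD68 and LAPTM5 (3.59 and 0 at day 0, 37.2 and 6.77 at day 10), and only 1 of the 2 was called without day 10 replicate 1. CD52, not tested, went from 0 in both day 0 libraries to 6.0 and 7.9. The sum of 9 endothelial markers was 2571 to 3317 at day 0 and 2066 to 2208 at day 10. KDR, the main VEGF receptor, rose from 4.49 and 12.9 to 216 and 102 (log2 4.09 ± 0.64, limma adjusted p = 0.000216), and so did TIE1 (27.8 and 14.6 at day 0, 325 and 199 at day 10) and VWF (7.18 and 4.30, then 52.8 and 56.4). Of the 6 endothelial markers tested these 3 were called higher and 1 lower (median log2 2.15), most of the sum was TEK, and CDH5 and EMCN were at 0 in all 4 libraries. The part of other cell types in the results was not tested. In bulk RNA, fewer cells with a transcript and less transcript per cell cannot be told apart.

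The table lists 27106 genes, of which 13924 had at least 10 normalized counts in at least 2 of the 12 libraries and were tested. A gene was called when its limma p-value, adjusted over all genes tested, was below 0.05. At day 10 4183 genes (30.0% of those tested) were higher and 4213 (30.3%) were lower than at day 0. At least 2-fold changes were called for 1715 higher and 1735 lower genes. The 2 libraries of one day lay wholly above or below those of the other for all called genes but 1. Such separation was common: among all 13924 genes tested, day 10 lay wholly above day 0 for 5481 and wholly below for 5439. It is therefore no support for a call by itself. Over all genes tested the median log2 change was 0.01 and the median absolute change 0.54. With so many genes called, a list is described below by its counts and its median beside these values. Some genes entered the test only through the group in which they are high.

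The genes of cell division fell together, and of the lists examined mitosis had the lowest median. All 46 tested genes of mitosis and the spindle checkpoint, of 46 listed, were called lower, with a median log2 change of -4.19. MKI67, the antigen of proliferating cells, had 9232 and 9197 normalized counts at day 0 and 229 and 849 at day 10 (-4.38 ± 0.43, limma adjusted p = 7.51e-06). Cyclin B1 (CCNB1), which starts mitosis with CDK1, had 7009 and 6237 at day 0 and 329.7 and 709 at day 10 (-3.77 ± 0.25, limma adjusted p = 4.52e-07). In each of these genes both day 10 libraries were far below both at day 0, and replicate 2 kept more transcript than replicate 1. The spindle motor KIF11 fell from 3549.9 and 3456 to 67.1 and 204 (-4.89 ± 0.36, limma adjusted p = 8.52e-07). HMMR, a spindle-binding hyaluronan receptor, fell from 1917 and 1745 to 15.6 and 65.5 (-5.78 ± 0.46, limma adjusted p = 1.58e-06), the steepest fall of the list. SPC25, a part of the outer kinetochore, fell from 634 and 597 to 3.6 and 27.1 (-5.76 ± 0.58, limma adjusted p = 8.91e-06). The kinesin of cell cleavage KIF20A, at 4969 and 4314 at day 0 and 71.9 and 349.9 at day 10 (-4.86 ± 0.50, limma adjusted p = 9.9e-06), shows the same gap between the day 10 replicates.

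Promoters of these genes are known for CCAAT boxes bound by NF-Y and for the cell cycle homology region (CHR), the site of the DREAM and MuvB complexes that repress them in resting cells. RefSeq windows (GRCh38.p14) from 250 bases before to 50 after the start were found for 38 of the 46 mitosis genes. The CHR letters TTTGAA, read on both strands, stood in 29 of the 38 (76.3%), against 13.8% of the 10336 tested genes with a window. The variant TTCGAA stood in 3 (7.89%, against 2.41%), and CCAAT in 32 (84.2%, against 42.8%). The 150 bases before the start are shown for the mitotic kinase PLK1 (chr16:23678739-23678888, plus strand) and cyclin B2, CCNB2 (chr15:59104996-59105145, plus strand), 5′ to 3′ with CCAAT and CHR letters of either strand in capitals, because they hold both kinds of site; both genes were picked after their values were seen. PLK1 fell from 4337 and 4227 to 140.3 and 385 and CCNB2 from 2696 and 2382 to 102 and 214.
PLK1: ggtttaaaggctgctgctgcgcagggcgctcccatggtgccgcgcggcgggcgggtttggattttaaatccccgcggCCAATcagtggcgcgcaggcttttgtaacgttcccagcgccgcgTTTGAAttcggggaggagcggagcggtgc
CCNB2: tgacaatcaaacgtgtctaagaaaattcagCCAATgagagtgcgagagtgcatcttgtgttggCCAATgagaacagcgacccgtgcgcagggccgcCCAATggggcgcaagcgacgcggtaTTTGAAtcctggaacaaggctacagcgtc
In PLK1 the CCAAT match begins 73 bases before the start, and in both genes the CHR letters begin 29 bases before it. A match is a run of letters and does not show that a factor is bound.

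Genes of DNA synthesis and repair went the same way. All 33 tested DNA replication genes were called lower (median log2 -2.98), as were 23 of 24 genes of homologous recombination and the Fanconi anaemia pathway (median -3.16, 1 higher) and 14 of 16 of nucleotide synthesis (median -1.17, 1 higher). MCM10, which loads onto origins as they fire, fell from 797 and 722 to 19.2 and 92.6 (-4.13 ± 0.49, limma adjusted p = 3.15e-05). PRIM1, the catalytic subunit of primase, fell from 398 and 339.98 to 14.4 and 26 (-4.18 ± 0.33, limma adjusted p = 1.51e-06). RRM2, the subunit of ribonucleotide reductase that limits dNTP supply, fell from 10356 and 10001 to 269.8 and 749 (-4.50 ± 0.33, limma adjusted p = 8.93e-07). In all of them the days did not overlap and replicate 2 was again the higher of the day 10 pair. The exonuclease EXO1 (663 and 573 at day 0, 20.4 and 58.7 at day 10) and FANCD2, the hub of the Fanconi pathway (1189.9 and 1292 at day 0, 24 and 99.3 at day 10), had log2 changes of -4.11 and -4.63 (limma adjusted p = 2.72e-06 and 8.09e-06). The E2F letters TTCCCGCC stood in 9 of the 30 replication genes with a window, against 6.21% of the 10336 tested genes.

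Of 20 G1/S cyclins and E2F factors 13 were called lower and 4 higher, and of 14 CDK inhibitors and RB family genes 9 were lower and 4 higher. E2F1, an activator of S phase genes, fell from 1507 and 1349.6 to 199 and 301 (-2.54 ± 0.20, limma adjusted p = 1.37e-06). E2F2 fell from 101 and 118 to 2.4 and 2.26, the latter 4 reads in all, so that day 0 was 46.9 times day 10 with a 95% counting interval of 18.1 to 174. Single inhibitors moved both ways. CDKN2B, which encodes p15, rose from 133 and 127 to 2257 and 3079 (4.33 ± 0.18, limma adjusted p = 3.42e-08). CDKN2A, the p16 and ARF gene next to it, rose from 131 and 126 to 809 and 874 (2.70 ± 0.12, limma adjusted p = 5.75e-08). CDKN1A, which encodes p21, rose from 10401 and 9905 to 65270.0 and 37469.9 (2.28 ± 0.24, limma adjusted p = 1.17e-05). For p15 and p16 replicate 2 was the higher of the day 10 pair, for p21 replicate 1. CDKN2C, the p18 inhibitor, went down from 1111 and 1009.6 to 32.4 and 91.4 (-4.25 ± 0.36, limma adjusted p = 2.24e-06).

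Of 28 p53 target genes 19 were called higher and 4 lower (median log2 0.68). BTG2, an antiproliferative factor, rose from 69.1 and 72.3 to 665 and 419 (2.88 ± 0.30, limma adjusted p = 1.17e-05), and BBC3, the death gene PUMA, from 132 and 115 to 945 and 524 (2.50 ± 0.22, limma adjusted p = 3.18e-06). PLK3, a stress kinase, rose from 704 and 627 to 8246 and 2407 (2.74 ± 0.41, limma adjusted p = 0.000169), with replicate 1 far above replicate 2. Of 14 BCL2 family genes 11 were higher and 2 lower. They include members of opposite function: BMF, which promotes death, rose from 143 and 169.6 to 1195 and 1405 (3.05 ± 0.20, limma adjusted p = 4.41e-07), and BCL2A1, which blocks it, from 6.29 and 11.2 to 361 and 148 (4.62 ± 0.46, limma adjusted p = 8.4e-06).

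Of 30 lamina, HMG and Polycomb genes 24 were called lower and 3 higher (median log2 -1.51). Lamin B1 (LMNB1), whose loss marks senescent cells, fell from 2064 and 2523 to 63.5 and 216 (-4.27 ± 0.41, limma adjusted p = 6.66e-06). EZH2, the methyltransferase of Polycomb repressive complex, fell from 1195 and 1024 to 98.3 and 109 (-3.40 ± 0.18, limma adjusted p = 1.02e-07). UHRF1, which keeps DNA methylation through replication, fell from 5195 and 4594 to 327 and 817 (-3.24 ± 0.30, limma adjusted p = 4.64e-06). The day 10 libraries were close for EZH2 and far apart for LMNB1 and UHRF1, and in none of these genes did the days overlap. Of the HMG genes, HMGB2 fell from 3963 and 3454 to 483 and 562 (-2.83 ± 0.13, limma adjusted p = 6.19e-08) and HMGB1 from 12678 and 11719 to 2642 and 3707 (-1.96 ± 0.13, limma adjusted p = 5.1e-07). HMGA1, which binds AT-rich DNA and gathers in heterochromatin foci, went the other way, from 36430.0 and 30990.2 to 71176 and 64608 (1.01 ± 0.11, limma adjusted p = 1.33e-05). HMGA2 had 16958 and 13761 at day 0 and 17632 and 15930.2 at day 10, overlapping values that were not called (0.13 ± 0.12, limma adjusted p = 0.334), with a change of -0.11 after quantile normalization and of -0.017 without day 0 replicate 2. Of 12 clustered histone genes tested, of 17 listed, 11 were called higher (median log2 2.18). HIST1H2AC rose from 62 and 68 to 441 and 395 (2.67 ± 0.17, limma adjusted p = 3.33e-07). Histone genes are near-identical copies and most of their transcripts lack a poly(A) tail, so single values are uncertain.

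**Figure D1:**
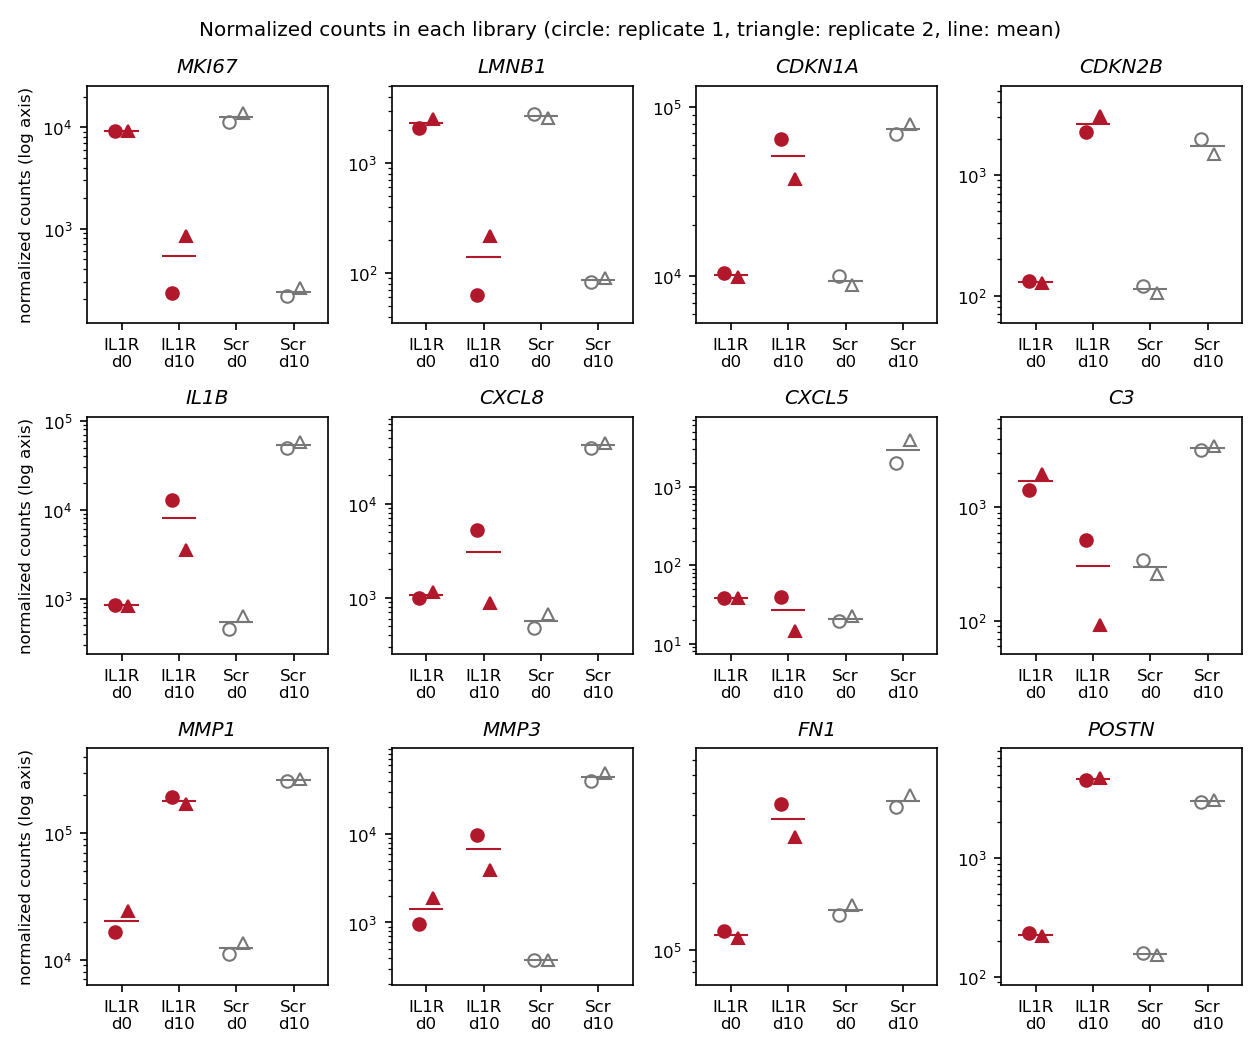
Normalized counts of 12 genes on log axes, 1 panel a gene, in shIL1R (filled red) and shScr (open grey) libraries at days 0 and 10; circles are replicate 1, triangles replicate 2 and lines the mean of the pair. The shIL1R day 10 libraries lie close together for POSTN and MMP1 and far apart for IL1B, CXCL8, C3 and MKI67, while the CXCL5 and CXCL8 values of shScr cells at day 10 lie above all the others.

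Both ligands of the receptor rose. Of 19 genes of the interleukin-1 pathway tested, of 21 listed, 8 were called higher and 3 lower. IL1B had 854 and 835 normalized counts at day 0 and 12785 and 3527 at day 10 (2.99 ± 0.53, limma adjusted p = 0.000553). IL1A had 76.3 and 141 at day 0 and 2675 and 660.3 at day 10 (3.67 ± 0.54, limma adjusted p = 0.000148). For both, replicate 1 at day 10 was far above replicate 2, and both replicates exceeded day 0. In shScr cells at day 10 the values were 49464 and 57823 for IL1B and 8779 and 9814 for IL1A, above both shIL1R libraries. The receptor antagonist IL1RN rose from 3 reads in all at day 0 to 42 at day 10, and the alarmin IL33 from 3 to 40, ratios of 18.5 (95% counting interval 5.92 to 93.4) and 17.6 (5.62 to 89.1).

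Chemokines, which draw leukocytes to senescent cells, were the list with the widest median difference between the genotypes (-3.69 in log2, shIL1R minus shScr). Of 13 tested, of 20 listed, 4 were called higher and 1 lower in shIL1R cells (median log2 1.05; 3 and 3 without day 10 replicate 1, 7 and 2 without replicate 2), and 9 higher and 1 lower in shScr cells (median 5.12). The test of the difference between genotypes, which was called lower in shIL1R cells for 1.54% of all genes and higher for 0.876%, was called lower for 6 of the 13. CXCL8, the interleukin-8 gene, had 991 and 1145 at day 0 and 5272 and 884 at day 10, so that replicate 1 lay above day 0 and replicate 2 just below it. Its change was 1.02 ± 0.66 (limma adjusted p = 0.204, not called); it was -0.27 without day 10 replicate 1, and 2.31 and called without replicate 2 (limma adjusted p = 0.00105). CXCL1 had 78.1 and 46.5 at day 0 and 125 and 28.2 at day 10 (-0.02 ± 0.53, limma adjusted p = 0.982, not called). CXCL5 had 38.6 and 37.9 at day 0 and 39.6 and 14.7 at day 10 (-0.64 ± 0.43, limma adjusted p = 0.222, not called). In both genes replicate 1 lay above and replicate 2 below the day 0 pair. Leaving out 1 day 10 library gave a call in either direction for CXCL1 (1.04 without replicate 2, -1.07 without replicate 1) and a call for CXCL5 only without replicate 1 (-1.32, limma adjusted p = 0.0136). In shScr cells at day 10 CXCL8 reached 38965 and 44346, CXCL1 1266 and 1097 and CXCL5 1972 and 3864.

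NF-kB binds the promoters of several of these genes. The letters GGANTTTCC, read on both strands, stood in 7 of the 11 chemokine genes with a window (63.6%), against 2.37% of the 10336 tested genes. The 150 bases before the start are shown for CXCL8 (chr4:73740419-73740568, plus strand), CXCL1 (chr4:73869243-73869392, plus strand), CXCL5 (chr4:73998678-73998827, minus strand) and IL6 (chr7:22727050-22727199, plus strand), 5′ to 3′ with the match in capitals. These 4 were called higher in shScr cells at day 10 and were not called higher in shIL1R cells. They were picked after their values were seen and all hold a match. Other genes that met the same condition, such as C3, are not shown, so the 4 do not show how common the match is.
CXCL8: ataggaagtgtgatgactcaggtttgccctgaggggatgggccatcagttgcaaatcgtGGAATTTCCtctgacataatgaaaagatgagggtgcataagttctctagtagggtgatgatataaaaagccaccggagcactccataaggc
CXCL1: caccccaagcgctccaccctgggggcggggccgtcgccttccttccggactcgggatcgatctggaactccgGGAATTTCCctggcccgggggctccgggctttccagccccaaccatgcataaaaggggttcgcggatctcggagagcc
CXCL5: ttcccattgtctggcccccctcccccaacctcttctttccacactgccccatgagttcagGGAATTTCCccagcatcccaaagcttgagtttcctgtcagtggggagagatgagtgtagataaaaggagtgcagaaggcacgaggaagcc
IL6: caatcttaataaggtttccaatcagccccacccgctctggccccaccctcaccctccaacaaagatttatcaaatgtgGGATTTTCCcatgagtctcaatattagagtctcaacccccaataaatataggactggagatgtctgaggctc
The match begins 91 bases before the start in CXCL8, 78 in CXCL1, 90 in CXCL5 and 72 in IL6. These letters are a description of the windows, and binding was not measured.

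Some chemokines rose from a very low level, and entered the test through the group in which they are high. CCL3, a macrophage chemokine with near-identical copies in the genome that make its value uncertain, went from 5 reads in all at day 0 to 1962 and 132 normalized counts, a ratio of 464 (95% counting interval 198 to 1430) with replicate 1 far above replicate 2. CCL20 went from 0 reads to 26 in all, at least 11.5-fold higher against a floor of 3 reads over the day 0 pair. CXCL10, the interferon-responsive chemokine, rose from 7.18 and 3.44 to 56.4 and 19.2 (2.50 ± 0.53, limma adjusted p = 0.00178). CXCL12, the ligand of CXCR4, was the member called lower, from 197 and 168 to 7.19 and 6.77 (-4.52 ± 0.83, limma adjusted p = 0.000727). CCL2 was not called and had the replicates the other way round, 146 and 247 at day 0 and 61.2 and 324 at day 10, with a change of 0.77 without day 10 replicate 1 and of -1.62, which was called, without replicate 2 (limma adjusted p = 0.00559). CXCR4 was at 2 reads in all at day 0 and at 396 and 42.9 normalized counts at day 10, a ratio of 243 (95% counting interval 66.9 to 2020).

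**Figure D2:**
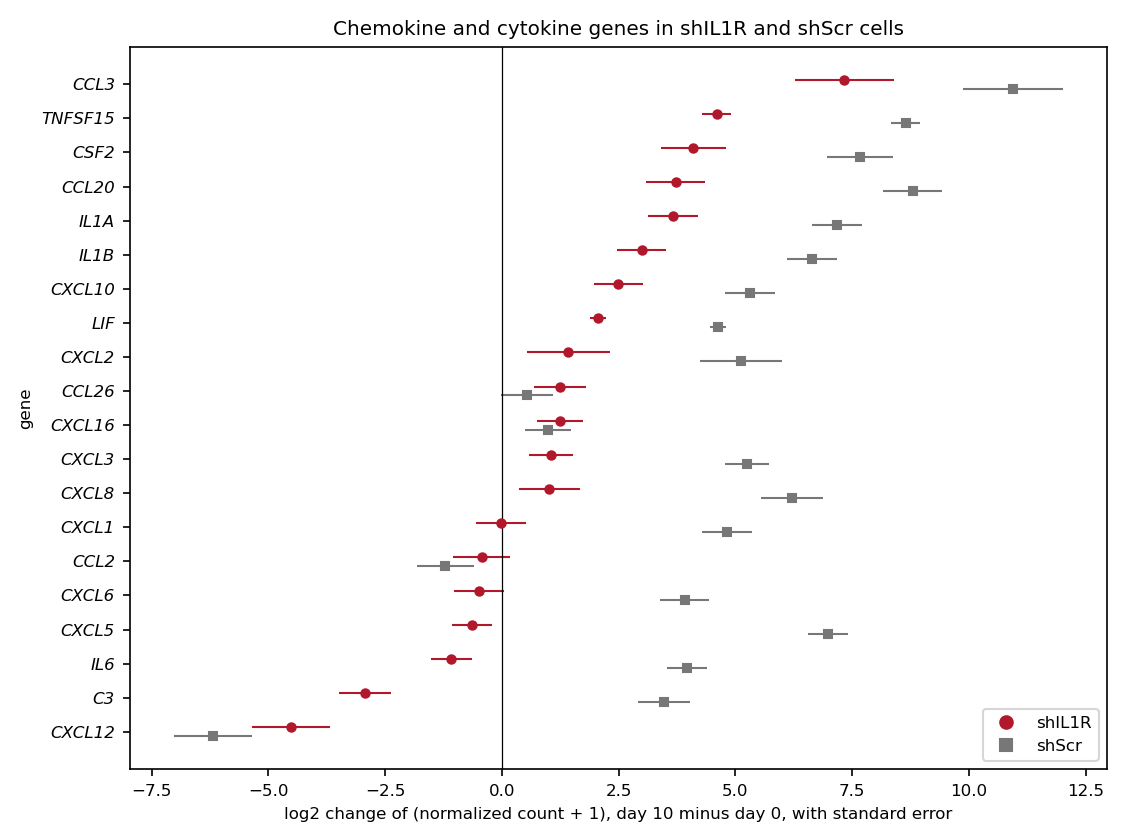
Log2 change from day 0 to day 10, with standard errors from limma, of the 13 tested chemokine genes and of IL1A, IL1B, IL6, LIF, CSF2, C3 and TNFSF15, in shIL1R (red circles) and shScr (grey squares) cells. Most grey squares lie far to the right of the red circles, with a difference of -7.62 in log2 for CXCL5 and -6.40 for C3 (shIL1R minus shScr); CXCL12 and CCL2 lie to the left of 0 in both genotypes.

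Other secreted cytokines were also called in both directions, where 30.0% of all genes tested were higher and 30.3% lower. Of 18 tested genes of the interleukin-6 family, colony-stimulating factors and related cytokines 7 were called higher and 4 lower. CSF2, the granulocyte-macrophage factor, rose from 55.7 and 65.4 to 2679 and 413 (4.10 ± 0.70, limma adjusted p = 0.000424). LIF, a relative of interleukin-6, rose from 687 and 669 to 2908 and 2733 (2.05 ± 0.17, limma adjusted p = 1.75e-06). The LIF replicates agreed closely, while for CSF2 replicate 1 was far above replicate 2. IL6 had 259 and 337 at day 0 and 199 and 97.1 at day 10, a change of -1.08 ± 0.43 that was only just called lower (limma adjusted p = 0.0486). It lost this call without either shIL1R day 0 library (adjusted p 0.0785 without replicate 1 and 0.202 without replicate 2), without any of the shScr day 0 or day 10 libraries (0.0644 to 0.0674) and without day 10 replicate 2 (-0.57, limma adjusted p = 0.298). It was not called either with no filter, quantile normalization, the compared groups alone, the 6 shIL1R libraries alone, robust eBayes or DESeq2 (adjusted p 0.051 to 0.0917). Of 18 TNF superfamily genes tested 11 were called higher and 1 lower (8 and 3 without day 10 replicate 1). TNFSF15 rose from 79.9 and 88.7 to 3191 and 1333 (4.60 ± 0.32, limma adjusted p = 5.76e-07), and TNFRSF1B, the second TNF receptor, from 321 and 328 to 1037 and 948 (1.61 ± 0.16, limma adjusted p = 6.28e-06).

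Of 19 NF-kB subunits and feedback genes 9 were called higher and 1 lower (median log2 0.34). Without day 10 replicate 1 the counts were 5 and 4. RELB, a subunit of the alternative pathway, rose from 498 and 415 to 1554 and 889 (1.37 ± 0.23, limma adjusted p = 0.000408), and REL was the member that fell, from 119 and 131 to 65.9 and 41.8 (-1.23 ± 0.26, limma adjusted p = 0.00162). ICAM1, an adhesion receptor for leukocytes, rose from 717 and 883 to 10411 and 2921 (2.79 ± 0.47, limma adjusted p = 0.000403). Complement and acute phase genes did not rise as a group: of 11 tested, of 17 listed, 2 were called higher and 3 lower (1 and 4 without day 10 replicate 2). C3, the central complement protein, fell from 1431 and 1963 to 516 and 92.6 (-2.93 ± 0.56, limma adjusted p = 0.0009), and without day 10 replicate 2 the change was -1.70. At day 4 it was at 92.8 and 85.3.

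Of 27 interferon-stimulated genes tested, of 28 listed, 17 were called higher and 3 lower (median log2 0.98). In shScr cells 12 were higher and 7 lower (median 0.81). The difference between genotypes was called for 0 of the 27. MX1, an antiviral GTPase, rose from 18.9 and 17.2 to 158 and 342 (3.62 ± 0.61, limma adjusted p = 0.00039). OAS1, which senses double-stranded RNA, was at 0 reads at day 0 and at 22.8 and 95.9 normalized counts at day 10, at least 45.9-fold higher against a floor of 3 reads over the pair. OAS2 rose from 2 reads in all to 88, a ratio of 58.2 (95% counting interval 15.6 to 488). Here replicate 2 was the higher of the day 10 pair, the reverse of the interleukin-1 genes. Of 7 tested genes of HLA class I presentation, of 14 listed, 5 were called higher and the other 2 were not called. HLA-E, HLA-F, HLA-G, TAP1 and PSMB9 were listed at 0 in all 12 libraries, and whether their reads were counted is not known. B2M, the shared light chain, rose from 22267 and 24070.2 to 40452 and 36089.5 (0.72 ± 0.11, limma adjusted p = 0.000234; 0.46 after quantile normalization), while HLA-B, whose reads can be shared with other class I genes, had 1577 and 1639 at day 0 and 4318 and 4332 at day 10 (1.43 ± 0.13, limma adjusted p = 3.36e-06).

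Of 22 matrix metalloproteinase and TIMP genes tested 12 were called higher, 2 lower and 8 were not called (median log2 1.04), and of 12 genes of plasminogen activation and serpins 9 were higher and 1 lower (median 1.09). MMP1, the interstitial collagenase, rose from 16551 and 24115 to 191904 and 168806 (3.17 ± 0.18, limma adjusted p = 1.41e-07). MMP3, stromelysin, rose from 957 and 1913 to 9779 and 3886 (2.19 ± 0.37, limma adjusted p = 0.0004). The inhibitor TIMP1 rose from 16416 and 15988 to 90349 and 76194 (2.36 ± 0.10, limma adjusted p = 4.21e-08). The day 10 libraries were close to each other for MMP1 and TIMP1 and apart for MMP3, and all lay above day 0. PLAT, tissue plasminogen activator, rose from 17238 and 25372 to 62534 and 55905 (limma adjusted p = 5.65e-05). SERPINF1, the anti-angiogenic factor PEDF, rose from 53 and 43 to 471 and 786 (3.64 ± 0.22, limma adjusted p = 2.81e-07).

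Growth factor genes and their regulators were called in both directions, as were all genes tested (30.0% higher and 30.3% lower). Of 23 EGF family and other growth factor genes 10 were called higher and 7 lower, of 12 genes of the IGF axis 7 and 3, and of 25 of TGF-beta, BMP and activin signalling 7 and 9. GDF15, a stress hormone of the TGF-beta family, rose from 512 and 584 to 75159.8 and 19992 (6.14 ± 0.46, limma adjusted p = 9.99e-07), with replicate 1 far above replicate 2. ANGPTL4, a lipase inhibitor, rose from 113 and 132 to 1850.1 and 2282 (4.06 ± 0.14, limma adjusted p = 1.7e-08), and the VEGF relative PGF from 20.7 and 26.7 to 246 and 156 (3.01 ± 0.38, limma adjusted p = 5.17e-05). IGFBP2 rose from 42.2 and 29.3 to 176 and 353, and IGFBP4 from 12966 and 13851 to 39601 and 35413; both bind insulin-like growth factors outside the cell. EGF fell from 61 reads in all to 2, day 0 being 23 times day 10 (95% counting interval 6.1 to 195). TGFB1 rose from 2638 and 2306 to 5506 and 5614 (1.17 ± 0.11, limma adjusted p = 4.08e-06), while FST, which traps activin, fell from 9786 and 11891 to 1408 and 1525 (-2.88 ± 0.16, limma adjusted p = 1.31e-07). ID1 and ID3, BMP-responsive inhibitors of helix-loop-helix factors, fell from 1818 and 1791 to 350.1 and 489.8 and from 3171 and 3289.6 to 547 and 472.

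Of 22 Ras-MAPK feedback genes 10 were called higher, 1 was lower and 11 were not called. Their median log2 change was 0.75 in day 10 replicate 1 and 0.28 in replicate 2. Of 21 genes of the AP-1, EGR and MYC families 10 were called higher and 5 lower. DUSP4, a phosphatase that switches off ERK, rose from 152 and 173 to 1697 and 1353 (3.22 ± 0.14, limma adjusted p = 5.19e-08). SPRY2, an inhibitor of receptor signalling to Ras, rose from 1879 and 1524 to 6108 and 3845 (1.52 ± 0.23, limma adjusted p = 0.000187). EGR2 rose from 1.8 and 5.16 to 387 and 273 (6.30 ± 0.62, limma adjusted p = 7.56e-06). In all of them both day 10 libraries lay above day 0. CEBPB, a transcription factor of the secretory programme, rose from 704 and 655 to 5011 and 2547 (2.39 ± 0.27, limma adjusted p = 2.19e-05), and KLF2, a zinc finger factor, fell from 1843 and 1357 to 187 and 263 (-2.83 ± 0.22, limma adjusted p = 1.23e-06). The Notch target HEY1 rose from 41.3 and 35.3 to 765 and 375 (3.78 ± 0.28, limma adjusted p = 1.06e-06), with 6 of 11 Notch genes higher and 2 lower.

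Matrix genes were called in both directions, as were all genes tested (30.0% higher and 30.3% lower). The median log2 change was 0.33 for collagens and -0.01 for elastic fibres, matricellular proteins and proteoglycans. Of 22 collagen genes 9 were called higher and 5 lower (11 and 3 without day 10 replicate 1, 9 and 7 without replicate 2), and of 27 genes of elastic fibres and matricellular proteins 8 each way. Periostin (POSTN), a matricellular protein, rose from 233 and 221 to 4512 and 4752 (4.35 ± 0.09, limma adjusted p = 3.05e-10). Fibronectin (FN1) rose from 121837 and 113034 to 447684 and 317706 (1.68 ± 0.17, limma adjusted p = 7.91e-06). COL10A1, the hypertrophic cartilage collagen, rose from 11.7 and 18.1 to 348 and 372 (4.54 ± 0.23, limma adjusted p = 8.05e-08). Elastin went the other way, as ELN fell from 218 and 274 to 2.4 and 4.51 (-5.82 ± 0.42, limma adjusted p = 7.66e-07). Decorin (DCN), a collagen-binding proteoglycan, fell from 9957 and 9994 to 2212 and 3705 (-1.80 ± 0.20, limma adjusted p = 1.95e-05). The fibrillar collagens, named after their values were seen, differed between the replicates: COL1A1 had 148282 and 151629 at day 0 and 65668 and 159731 at day 10, so that only replicate 1 was low. Its change was not called (-0.55 ± 0.31, limma adjusted p = 0.149) and was 0.091 without day 10 replicate 1 and -1.19, which was called, without replicate 2 (limma adjusted p = 0.000172); after quantile normalization it was called lower (limma adjusted p = 0.0151). COL3A1 had 24332 and 34053 at day 0 and 6312 and 22979.9 at day 10, called lower at -1.26 ± 0.43 (limma adjusted p = 0.0248), and lost the call without day 10 replicate 1 (-0.32, limma adjusted p = 0.169) and without day 0 replicate 2 (-1.01, limma adjusted p = 0.142), with -2.19 without day 10 replicate 2. The call was also lost with edgeR (0.0578), DESeq2 (0.0834), the compared groups alone (0.12) and the 6 shIL1R libraries alone (0.0756).

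Genes of the contractile cytoskeleton fell. Of 21 tested 14 were called lower and 2 higher (median log2 -0.63), and of 15 YAP-responsive genes, which report cell tension and spreading, 12 were lower and 1 higher (median -0.65). MYH10, nonmuscle myosin IIB, fell from 3249 and 3111 to 555 and 845 (-2.21 ± 0.18, limma adjusted p = 1.86e-06), and TAGLN, an actin-binding protein, from 18796 and 18472 to 7375 and 5911 (limma adjusted p = 8.49e-06). The YAP targets CTGF and CYR61, both matricellular proteins, fell from 38759 and 44876 to 11041 and 8103 (-2.14 ± 0.28, limma adjusted p = 5.56e-05) and from 22838 and 23570.2 to 6321 and 5725 (-1.95 ± 0.27, limma adjusted p = 0.000101). Integrins and other adhesion receptors were mixed, 10 of 22 higher and 6 lower. L1CAM, a neural adhesion molecule, rose from 158 and 175 to 2388 and 2775 (3.95 ± 0.16, limma adjusted p = 3.69e-08), the collagen receptor subunit ITGA11 rose from 920.5 and 1335 to 4155 and 5097, and ITGA4 fell from 2298 and 2141 to 415 and 599.

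Lysosomal genes rose with little gap between the replicates. Of 28 lysosome and autophagy genes 25 were called higher and the other 3 were not called (median log2 1.09; 1.19 in replicate 1 and 0.99 in replicate 2). GLB1, the beta-galactosidase behind the classic stain for senescent cells, rose from 2654 and 2583 to 5482 and 5067 (1.01 ± 0.08, limma adjusted p = 1.17e-06). SQSTM1, the autophagy receptor p62, rose from 6201 and 6805 to 29494 and 20239.5 (1.91 ± 0.16, limma adjusted p = 1.91e-06). GPNMB, a lysosomal glycoprotein, rose from 7.18 and 12 to 781 and 419.9 (5.79 ± 0.41, limma adjusted p = 7.12e-07). ATP6V0D2, a proton pump subunit, rose from 1 read in all to 178, a ratio of 235 (95% counting interval 41.7 to 9350). Proteasome genes went down: 17 of 28 were lower and 1 higher (median -0.40), for example PSMB2 from 4214 and 4271 to 2084 and 2261 (-0.97 ± 0.07, limma adjusted p = 1.13e-06).

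Cytosolic ribosomal protein genes mostly rose by small steps, with changes of -0.65 to 1.15 in log2. Of 34 cytosolic ribosomal protein genes 33 were called higher and 1 lower, with a median log2 change of 0.69. RPS19 rose from 11858 and 11270.0 to 28655 and 22973 (1.15 ± 0.10, limma adjusted p = 4.22e-06), and RPL37 from 9129 and 9302 to 21626 and 18496 (1.12 ± 0.09, limma adjusted p = 1.48e-06). In shScr cells 20 of the 34 were higher (median 0.32), and the difference between genotypes was called for 1 of them, as higher in shIL1R cells. The share of RNA45S5 reads was also higher at day 10, as given above, and a link to these genes was not tested. That share can differ within a group: it was 1.8% and 3.4% in the shScr day 4 libraries. Genes of glycolysis and hypoxia also rose, 20 of 27 higher and 2 lower (median 0.51): ALDOC, a brain-type aldolase, from 525 and 609 to 2754 and 2985 (2.34 ± 0.12, limma adjusted p = 9.87e-08), and CA9, a hypoxia-induced carbonic anhydrase, from 27.8 and 31 to 302 and 360.05 (3.45 ± 0.26, limma adjusted p = 1.16e-06). Respiratory chain genes were split, 13 of 28 higher and 8 lower, with changes of -0.89 to 0.97. Among stress genes the copper and zinc binder MT2A rose from 8795 and 7304 to 52170.5 and 44138 (2.58 ± 0.11, limma adjusted p = 4.7e-08), while 2 genes of glutathione supply fell, GCLM from 871 and 791 to 213 and 221 (-1.93 ± 0.11, limma adjusted p = 2.02e-07) and SLC7A11 from 1576 and 1894 to 476 and 471 (-1.87 ± 0.20, limma adjusted p = 1.37e-05).

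For some lists the count depends on which day 10 library is used. Cholesterol synthesis had 10 of 22 genes higher and 2 lower (median log2 0.35), 17 and 2 without replicate 1, and 8 and 7 without replicate 2; the median change was 0.02 in replicate 1 and 0.68 in replicate 2. INSIG1, which holds back the pathway's master factor, rose from 516 and 479 to 1284 and 1104 (1.26 ± 0.20, limma adjusted p = 0.000253). Chaperones and other genes of the unfolded protein response were 14 of 23 higher and 2 lower, 7 and 2 without replicate 1 and 18 and 2 without replicate 2. HSPA5, the main chaperone of the endoplasmic reticulum, went from 25695 and 28083 to 198380.0 and 61620.2 (2.04 ± 0.52, limma adjusted p = 0.00587), with 1.20 without day 10 replicate 1 (limma adjusted p = 0.0475). DDIT3, the stress factor CHOP, went from 549 and 626 to 8470.1 and 1936 (2.79 ± 0.68, limma adjusted p = 0.00434), with 1.72 without day 10 replicate 1 (limma adjusted p = 0.0343). Both were much higher in replicate 1 than in replicate 2.

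Several lists were split or moved little, where 30.0% of all genes tested were called higher and 30.3% lower. Of 25 NRF2 and antioxidant genes 11 were called higher and 6 lower, of 22 genes of ATF4 and the amino acid response 7 each way (4 higher and 9 lower without day 10 replicate 1), and of 14 WNT ligands and inhibitors 8 higher and 4 lower. Ras genes and their regulators had 6 of 18 higher and 5 lower, and telomerase and shelterin, which act at chromosome ends, 2 of 8 higher and 5 lower. Reads of TERT, a member of the latter list, can come from the gene and from the hTERT that all cells carried. Of 13 genes of prostaglandins and lipid mediators 3 were higher and 2 lower (5 and 2 without day 10 replicate 2), and of 15 regulators of lung fibroblasts 5 were higher and 2 lower (4 and 4 without day 10 replicate 2).

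**Figure D3:**
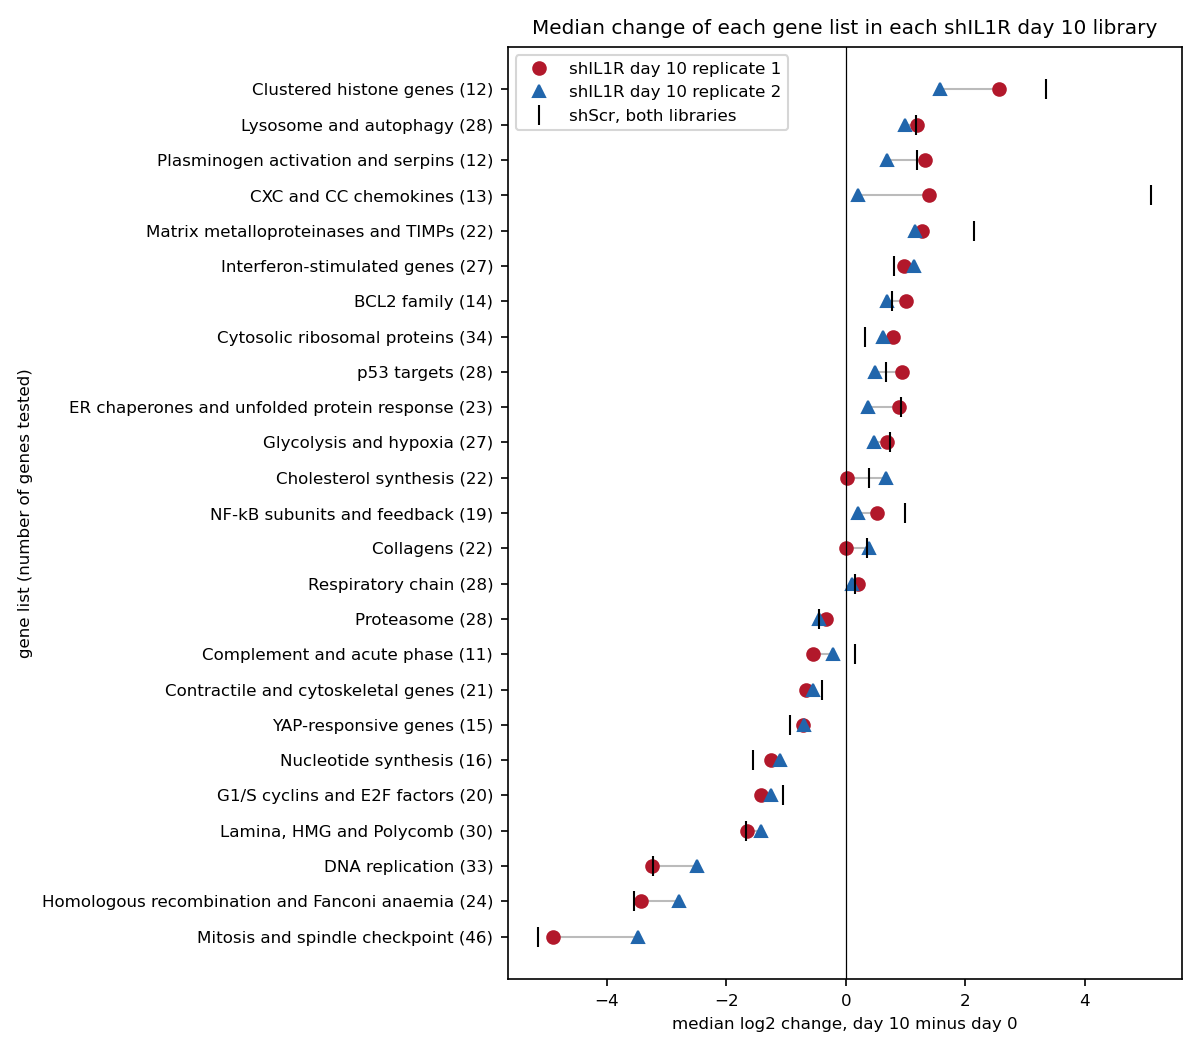
Median log2 change from day 0 of 25 gene lists in shIL1R day 10 replicate 1 (red circles) and replicate 2 (blue triangles), each against the mean of the 2 day 0 libraries, with the shScr median as a black bar and the number of genes tested in brackets. Replicate 1 lies farther from 0 for mitosis (-4.91 against -3.47) and chemokines (1.39 against 0.20), and nearer to 0 for cholesterol synthesis (0.02 against 0.68).

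The genes with the widest changes came from several families. LCE1F, a late cornified envelope gene of skin with close paralogs that make its value uncertain, went from 6.29 and 2.58 to 6307 and 1752 (9.35 ± 0.50, limma adjusted p = 1.12e-07). The cysteine protease inhibitor CST1, which has near-identical neighbours and is uncertain too, went from 15.3 and 28.4 to 5622 and 6884 (8.15 ± 0.29, limma adjusted p = 1.89e-08). PRSS22, a serine protease, went from 0 reads to 170.3 and 114 normalized counts, at least 107-fold higher against a floor of 3 reads over the day 0 pair. SYT7, a calcium sensor of lysosome exocytosis, rose from 2 reads in all to 401, a ratio of 265 (95% counting interval 73 to 2200). At the other end, the long noncoding RNA LINC00707 fell from 326 reads in all to 2, so that day 0 was 123 times day 10 (95% counting interval 33.8 to 1020). CEMIP, which breaks down hyaluronan, fell from 8149.5 and 15508 to 230.2 and 298 (-5.42 ± 0.38, limma adjusted p = 7.04e-07). That both replicates lay on the same side of day 0 was a condition for picking these genes and is not a result.

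The shIL1R day 10 libraries were the least alike pair of the study. Over the 11311 genes whose mean reached 50 normalized counts, the log2 difference between them had a standard deviation of 0.44, against 0.17 to 0.26 in the other 5 groups, and 411 genes were more than 2-fold apart, against 15 to 83. Standard errors and p-values rest on a spread pooled over all 6 groups, so they may be too small for comparisons with this pair. Replicate 1 was farther from day 0 than replicate 2 for 63.7% of called genes (5349 against 3043), with a median absolute log2 change of the called genes of 0.89 against 0.79. NPTX1, a neuronal pentraxin, was one that went the other way, 1838 and 2061 at day 0 and 4347 and 24689.8 at day 10 (2.41 ± 0.64, limma adjusted p = 0.00722), and its change was 3.66 without replicate 1 and 1.16 without replicate 2. HRAS read lower in replicate 2, as given above, and its part in this gap was not tested.

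**Figure D4:**
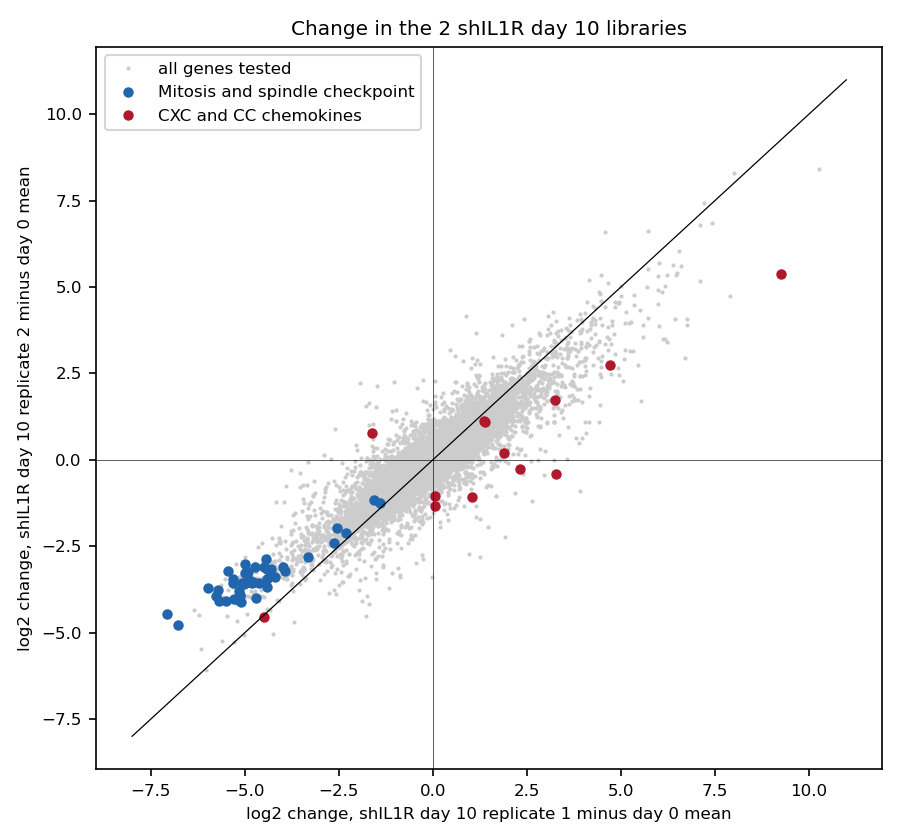
Log2 change from the mean of the day 0 libraries in shIL1R day 10 replicate 1 (horizontal axis) and replicate 2 (vertical axis) for the 13924 genes tested (grey), the 46 mitosis genes (blue) and the 13 chemokine genes (red), with the line of equal change. Nearly all mitosis genes lie above the line, where the fall was larger in replicate 1, and most chemokine genes lie below it.

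The change to day 10 was largely common to both genotypes. Of the 8396 genes called in shIL1R cells 6948 (82.8%) were called in the same direction in shScr cells, which is 78.3% of the 8879 called there, 44 were called in opposite directions, and 1404 were called in shIL1R cells alone by their own test. The 2 changes share no library, so the difference between them could be tested directly. It was called for 122 genes (0.876% of those tested) as higher and for 214 (1.54%) as lower in shIL1R cells. Among the 44 genes called opposite ways it was called for 38. These 44 were picked by opposite calls in the same libraries, so the 38 are no separate support. Of the 1404 it was called for 43, so a call in shIL1R cells alone does not by itself show a difference. For 180 of the 336 genes the shIL1R change had the same sign as a called shScr change and was smaller. The counts depend on single libraries: they were 11 higher and 31 lower without shScr day 0 replicate 2, 23 and 49 without shScr day 0 replicate 1, 45 and 109 without shIL1R day 0 replicate 1, 12 and 32 without shIL1R day 0 replicate 2, 18 and 31 without shScr day 10 replicate 2, 191 and 227 without shIL1R day 10 replicate 2, and 984 and 1139 without shIL1R day 10 replicate 1.

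C3 and IL6 were among the genes called in opposite directions, IL6 by the unstable call in shIL1R cells given above. CXCL5 rose from 19.3 and 22.5 to 1972 and 3864 in shScr cells and not in shIL1R cells, a difference of -7.62 ± 0.61 in log2 (limma adjusted p = 0.000507). C3 rose from 343 and 259.5 to 3168 and 3454 in shScr cells while it fell in shIL1R cells (-6.40 ± 0.79, limma adjusted p = 0.00353). IL6 rose from 125 and 110.2 to 1899.8 and 1801 in shScr cells (-5.05 ± 0.61, limma adjusted p = 0.00333). MMP3, TNFSF15 and LIF rose in both genotypes but less in shIL1R cells, with differences of -4.68, -4.05 and -2.57 in log2 (limma adjusted p = 0.00204, 0.00204 and 0.000604). CXCL8 and CXCL1 had differences of -5.19 and -4.83 (limma adjusted p = 0.0197 and 0.0123). The first 6 of these differences were called in each of the 12 fits that left out 1 library. That of CXCL8 lost its call without either shScr day 0 library, either shIL1R day 0 library or shScr day 10 replicate 2 (limma adjusted p = 0.0555 to 0.101), and with robust eBayes (0.0509), and that of CXCL1 without either shScr day 0 library or shScr day 10 replicate 2 (0.0563 to 0.0636). Other genes had a difference that was higher in shIL1R cells. IL21R, a cytokine receptor, went from 20.7 and 29.3 to 46.8 and 68.8 in shIL1R cells and from 53.3 and 44.2 to 7.08 and 15.2 in shScr cells (3.29 ± 0.48, limma adjusted p = 0.00944), and ADAMTSL1, a secreted matrix protein, went from 316 and 212 to 179.9 and 226 in shIL1R cells and from 530.1 and 661 to 77.9 and 85.1 in shScr cells (2.49 ± 0.32, limma adjusted p = 0.00503). The rise of IL21R within shIL1R cells (limma adjusted p = 0.0114) lost its call without day 0 replicate 1 (0.0892) or day 10 replicate 2 (0.0696), while the differences for both genes were called in each of the 12 fits.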

How the data were processed

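RNA of 12 libraries in 6 groups of 2 was compared by label, and the 4 shIL1R libraries at days 0 and 10 are described. The deposited table holds the authors' normalized counts (a signal: read counts divided by a factor per library), made with TopHat, HTSeq and DESeq2 on hg19 per the submitters' processing notes. Their versions, the annotation and the strand setting are not given in the sources used here. Whole reads were recovered for 100% of values (within 0.001 reads), with 1 read worth 0.834 to 1.20 normalized counts. Values were taken as log2(value + 1), so changes of low genes are understated. limma 3.58.1 in R 4.3.3 was fitted to 6 group means over all 12 libraries with a mean-variance trend (6 residual and 4.98 prior degrees of freedom), and p-values were adjusted (Benjamini-Hochberg) over 13924 genes. The difference between genotypes is the shIL1R change minus the shScr change. edgeR 4.0.16 and DESeq2 1.42.0 were run on the recovered reads as alternatives. Ratios with 1 to 5 reads carry exact 95% intervals, which cover counting error only, and a group at 0 is given a floor of 3 reads over its 2 libraries. The members and the 51 lists were chosen with earlier results of these data known. The rule for named genes took fixed genes, the largest called changes and the extremes of each list (249 genes), and the text names a subset of these picked after their values were seen. Promoter windows came from RefSeq (GRCh38.p14), matched by symbol, and were searched for 6 letter patterns. The pattern not given above, TCACNCCAC for cholesterol synthesis, stood in 1 of 17 genes with a window (5.88%, against 1.47% of tested genes).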

Additional observations from a re-analysis of the deposited data

Results flagged for a closer look

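For 14 named genes the change from day 0 to day 10 differed between shIL1R and shScr cells by the limma test of the difference itself. Values are log2, shIL1R minus shScr. The change was lower in shIL1R cells for CXCL5 (-7.62), C3 (-6.40), CXCL8 (-5.19), IL6 (-5.05), CXCL1 (-4.83), MMP3 (-4.68), TNFSF15 (-4.05) and LIF (-2.57). It was higher for IL21R (3.29), ADAMTSL1 (2.49), ITGA10 (2.25), S1PR1 (2.15), ID1 (1.96) and MBOAT1 (1.88).

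ITGA10, a collagen receptor subunit, had 183 and 169.6 normalized counts at day 0 and 436 and 526 at day 10 in shIL1R cells, and 241 and 295 and then 191 and 119.5 in shScr cells (limma adjusted p of the difference = 0.0127). S1PR1, a receptor for sphingosine 1-phosphate, had 377 and 448 at day 0 and 127 and 199 at day 10 in shIL1R cells, and 497 and 618 and then 49.6 and 45.6 in shScr cells (limma adjusted p = 0.0123). Both differences lost their call without shScr day 0 replicate 2, shIL1R day 0 replicate 2 or shScr day 10 replicate 2 (adjusted p 0.0522 to 0.077). ID1 lost its call without shScr day 0 replicate 2 (0.0521) or shScr day 10 replicate 2 (0.0502), and MBOAT1, a lysophospholipid acyltransferase, without shScr day 0 replicate 2 (0.0582) or shIL1R day 0 replicate 2 (0.065).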

How the results depend on the processing

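The counts of shIL1R genes called at day 10 (4183 higher, 4213 lower) were 1715 and 1735 when a 2-fold change was required, and stayed within 1.5 times under the other settings: 3388 and 3340 with the compared groups alone, 4216 and 4207 with edgeR, 4061 and 3981 with DESeq2, and 3431 to 4268 and 3426 to 4271 leaving out 1 library. The counts of differences between genotypes (122 higher, 214 lower) were less stable: 73 higher with no filter, 41 and 115 with the compared groups alone, 351 and 451 with DESeq2, 57 higher with a 2-fold change required, and 11 to 984 higher and 31 to 1139 lower leaving out 1 library. The cause was not tested, apart from the stricter fold. Whether the replicate numbers pair the libraries is not known. The differences between replicates correlated between groups at -0.208 to 0.336, which does not settle it. Within shIL1R cells the values were 0.23 for days 0 and 4, 0.205 for days 4 and 10 and -0.00932 for days 0 and 10. With a replicate block over all libraries the shIL1R counts were 4159 and 4206 and the differences 105 and 207; with a block within genotype they were 4145 and 4190, and 93 and 206.

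The 6 changes that turned direction in some setting were not called with all libraries. HMGA2 was -0.11 after quantile normalization and -0.017 without day 0 replicate 2. CXCL1 was 0.00488 with a pseudocount of 5, 0.042 after quantile normalization, 0.28 with edgeR, 0.29 with DESeq2, 0.35 without day 0 replicate 1, and -1.07 or 1.04 without day 10 replicate 1 or 2. Without day 10 replicate 1 or 2, in that order, CXCL8 was -0.27 or 2.31, CXCL5 -1.32 or 0.048, CCL2 0.77 or -1.62, and COL1A1 0.091 or -1.19. With 2 libraries a group the spread rests on few degrees of freedom, and values near 1 read carry little precision.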
